A study of Mus musculus with 80 samples.

Results

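Hox genes encode homeodomain transcription factors that lie in 4 clusters in the mouse genome and set position along the head to tail axis of the embryo. Genes of low paralogue number (anterior) are used towards the head and genes of high number (posterior) towards the tail and the limb ends. Polycomb complexes keep unused Hox genes silent and leave H3K27me3 on them, while H3K4me3 and H3K27ac mark promoters that are poised or in use. In pluripotent cells Hox promoters are known for carrying H3K4me3 and H3K27me3 together, a state called bivalent, and in fibroblasts the Hox genes in use record the body region the cells came from.

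The members were Hox genes named by symbol, with their bounds in the mm10 genome, and 38 of the 39 Hox genes of the rule were analysed here. A gene counted as marked when a peak of a list overlapped its bounds extended by 1 kb. The 38 genes were 10 in cluster A (Hoxa2 to Hoxa13, chr6:52162417-52260880), 10 in B (Hoxb1 to Hoxb13, chr11:96194316-96368254), 9 in C (Hoxc4 to Hoxc13, chr15:102921131-103036856) and 9 in D (Hoxd1 to Hoxd13, chr2:74668225-74765142). By paralogue group they were 11 anterior genes (groups 1 to 4), 11 central genes (groups 5 to 8) and 16 posterior genes (groups 9 to 13). For comparison the same count was made over all 21887 protein-coding genes with a single position. Hox genes are short, with a median of 3.72 kb between their bounds against 17.2 kb for all genes, so a Hox window had less room for a peak. Windows of 19 Hox genes overlapped a neighbour's, in 13 pairs, and such genes can share a peak.

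The study followed chemical reprogramming, in which small molecules in the medium turn mouse embryonic fibroblasts (MEFs) into induced pluripotent stem cells (iPSCs). CUT&Tag, which uses an antibody to bring a cutting and tagging enzyme to a histone mark, was run for H3K4me3, H3K27ac, H3K18la, H3K27me3 and H3K9me3 at 8 stages. D0 was MEFs of strain 129XOG2, taken from E13.5 embryos and used at early passage, whose OG2 transgene reports activity of the pluripotency gene Pou5f1. D2, D4, D6, D8, D10 and D12 were the same cells on successive days in reprogramming medium, of a composition the labels do not state, and iPSC was the resulting line kept on feeder cells with LIF, CHIR99021 and PD0325901. All stages shared the strain and the transgene. The 80 libraries, 2 for each mark and stage, were deposited as 40 peak lists, 1 for each mark and stage. Values therefore have no replicate spread and no test, and every difference below is one between lists.

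The lists held 7009 to 37784 peaks, and the background fragment density most common in a list, used here as its depth, was 1.31 to 4.06 fragments per position. Both extremes of low depth and length belonged to H3K18la at D2, whose peak names carry a library number, so it may hold 1 library. H3K27ac at fibroblast and pluripotency markers went mostly with the stage labels. Of the fibroblast markers 8 of 8 had H3K27ac at D0 and 1 (Fn1) in iPSC. Of 8 pluripotency genes 2 had it at D0 and 6 in iPSC, where Nanog and Dppa4 lacked it. Over all coding genes the share was 63.5% at D0 and 41.3% in iPSC. H3K4me3 separated the fibroblast markers less, with 8 at D0 and 7 in iPSC, while it was at 3 and 8 pluripotency genes. H3K27ac was also at 1 of 6 epithelial genes at D0 and 1 in iPSC, with 5 at D10 and D12. It was at 3 of 6 blood genes at D0 (2 in iPSC), as many neuronal ones, and 5 of 6 endothelial ones (2 in iPSC). Feeder cells of a kind not given could add DNA to the iPSC libraries, and their part was not tested.

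H3K27me3, the Polycomb mark, was at nearly every Hox gene of the fibroblasts and, in the whole lists, at fewer at each later stage. From D0 to iPSC in stage order it was found at 34, 14, 14, 7, 16, 22, 12 and 20 of the 38 genes. Over all coding genes it was found at 28.0, 21.9, 24.7, 15.9, 22.5, 26.0, 18.6 and 28.2%. The Hox share was thus above the share of all genes most widely at D0 and was close to it at D6. Between D0 and iPSC 15 Hox genes had the mark at D0 alone, against 8.9% of all genes. The reverse was seen at 1 gene, Hoxa9, a posterior gene known in blood formation, against 9.07% of all genes. The iPSC peak lay outside the bounds of Hoxa9 and covered 148 bp at the edge of its 1 kb extension. The net difference was -14 genes, and -15 with an overlap of at least 200 bp.

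**Figure D1:**
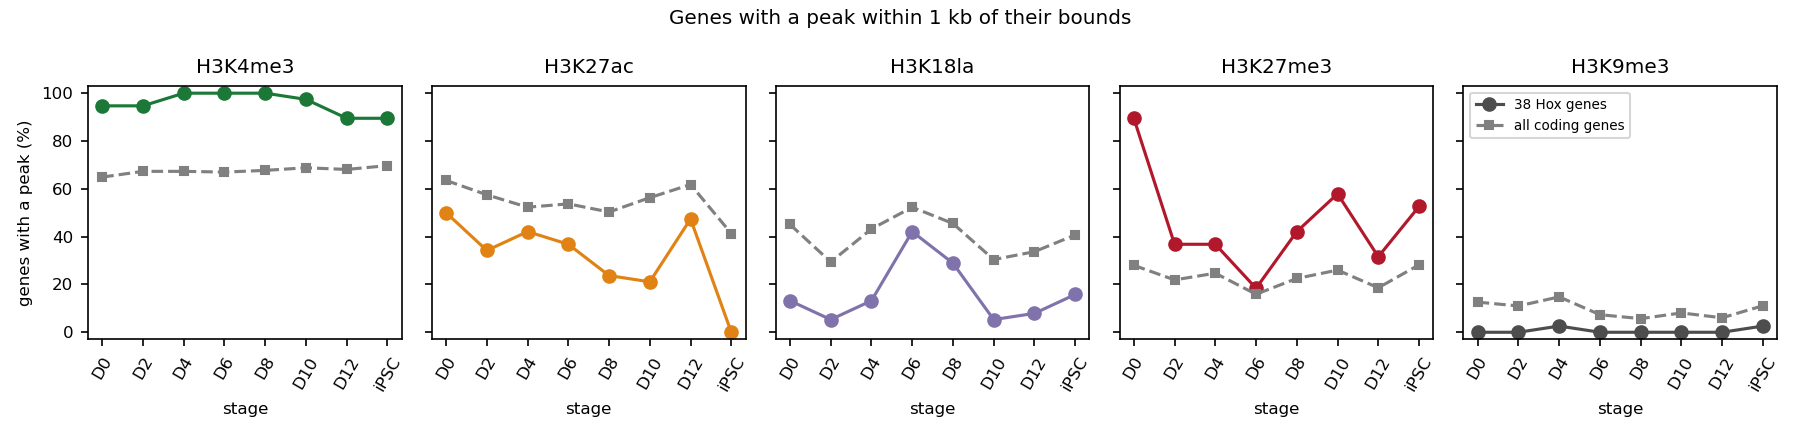
Percent of genes with a peak within 1 kb of their bounds (vertical axis) at each stage (horizontal axis), 1 panel per mark. Coloured circles are the 38 Hox genes and grey squares all 21887 coding genes. H3K27me3 at Hox genes goes from 34 genes at D0 to 7 at D6, and H3K27ac from 19 at D0 to 0 in iPSC.

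Each of the 4 clusters had fewer marked genes at D2 than at D0, with 2, 5, 1 and 6 in A, B, C and D against 8, 8, 9 and 9. At D6 the 7 genes with H3K27me3 were Hoxa13, Hoxb13, Hoxc10, Hoxd10 and Hoxd12, all posterior, and the anterior genes Hoxb1 and Hoxd1. No central gene had it then. In stage order the mark was at 15, 5, 9, 5, 7, 13, 6 and 9 of 16 posterior genes. It was at 9, 3, 1, 0, 3, 3, 2 and 4 of 11 central genes and at 10, 6, 4, 2, 6, 6, 4 and 7 of 11 anterior genes. The posterior windows had 21.05% of their length under H3K27me3 at D0, 2.43% at D6, 8.18% at D10 and 6.69% in iPSC. The central windows had 12.63, 0.0, 2.25 and 2.87% at those stages.

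Hoxb1, Hoxd1 and Hoxd12 had H3K27me3 at all 8 stages, while Hoxb4 and Hoxb5 had it at none. The shares of all coding genes with the mark at all stages or at none were not counted. Hoxb1 is needed for hindbrain patterning, Hoxd1 is an anterior gene of cluster D, Hoxd12 acts in the limb with its posterior neighbours, and Hoxb4 is known in blood stem cells. Promoter sequence is shown for those of these genes with an entry, to set genes with H3K27me3 at every stage beside one with none. Each is the RefSeq sequence of 250 bases before to 50 after a gene start in build GRCm38.p6, plus strand, with every CG in capitals. The positions are chr11:96365508-96365807 for Hoxb1, chr2:74762730-74763029 for Hoxd1, chr2:74674763-74675062 for Hoxd12 and chr11:96318017-96318316 for Hoxb4.
Hoxb1: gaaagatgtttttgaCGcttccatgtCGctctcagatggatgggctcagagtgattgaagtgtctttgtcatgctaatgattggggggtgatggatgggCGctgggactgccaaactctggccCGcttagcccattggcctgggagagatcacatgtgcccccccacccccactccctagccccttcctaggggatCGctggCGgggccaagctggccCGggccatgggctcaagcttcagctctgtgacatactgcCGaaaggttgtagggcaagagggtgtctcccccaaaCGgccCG
Hoxd1: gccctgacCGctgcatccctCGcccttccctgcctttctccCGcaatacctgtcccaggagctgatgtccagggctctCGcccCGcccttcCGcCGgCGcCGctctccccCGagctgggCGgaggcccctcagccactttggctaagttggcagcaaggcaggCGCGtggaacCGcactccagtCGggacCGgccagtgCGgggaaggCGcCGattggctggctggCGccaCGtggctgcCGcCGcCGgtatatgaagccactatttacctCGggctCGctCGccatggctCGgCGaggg
Hoxd12: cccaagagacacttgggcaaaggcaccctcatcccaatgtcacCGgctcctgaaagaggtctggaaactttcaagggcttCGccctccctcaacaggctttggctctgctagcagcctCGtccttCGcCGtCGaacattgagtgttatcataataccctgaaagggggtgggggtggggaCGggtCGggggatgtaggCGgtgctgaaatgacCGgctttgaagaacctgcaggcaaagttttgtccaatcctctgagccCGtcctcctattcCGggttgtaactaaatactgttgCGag
Hoxb4: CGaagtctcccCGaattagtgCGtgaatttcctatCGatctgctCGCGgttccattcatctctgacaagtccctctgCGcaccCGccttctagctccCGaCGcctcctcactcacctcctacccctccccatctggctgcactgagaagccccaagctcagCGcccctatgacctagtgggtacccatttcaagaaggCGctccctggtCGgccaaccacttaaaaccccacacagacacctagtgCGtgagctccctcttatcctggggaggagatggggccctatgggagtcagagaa

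These promoters held 10, 29, 13 and 14 CG pairs. The letters CG read the same on both strands, and a match is a description of the sequence only. Over 24 promoters of 22 Hox genes the median was 14.5 CG pairs, and 70.8% held 10 or more. Over 32851 promoters of all genes the median was 7, 43.5% held 10 or more and 94.6% held at least 1. Hox promoters ranged from 4 CG pairs (Hoxa9, Hoxd4 and 1 window of Hoxd11) to 45 (Hoxa13). Hoxb4, with no H3K27me3 peak at any stage, had a CG count between those of Hoxd12 and Hoxd1. H3K27me3 peaks covered part of these 300 bases at 8 stages for Hoxb1 and Hoxd1 and at 4 stages for Hoxd12. H3K4me3 peaks covered part of the Hoxd1 promoter at 8 stages, of Hoxb4 at 7 (D0 to D12), of Hoxb1 at 6 (D0 to D10) and of Hoxd12 at 0.

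Where the H3K27me3 peaks stayed, their height changed. Height is given as the pileup of fragments at the peak, solved from the authors' fold and p-value, divided by the list's most common background, so that lists of different depth can be set side by side. At Hoxb1 it was 66.3, 41.0, 31.4, 12.7, 15.2, 18.1, 10.3 and 22.0 in stage order. At Hoxd1 it was 63.1, 28.3, 15.1, 11.3, 14.5, 17.2, 8.78 and 25.8. At Hoxd12 it was 47.5, 32.1, 27.2, 14.5, 17.2, 16.0, 8.78 and 26.9. All 3 regions were highest at D0 and lowest at D12, and in iPSC stood above every stage from D6 to D12 but below D0. The median over all H3K27me3 peaks of a list was 12.6, 12.1, 10.6, 8.73, 7.98, 9.17, 7.84 and 12.1 in stage order. The whole lists were thus also highest at D0 and lowest at D12, over a narrower range.

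The authors' fold enrichment did not follow that course. At Hoxb1 it was 3.72 at D0, 3.72 at D6 and 2.78 in iPSC, and at Hoxd12 2.72, 3.54 and 2.76. Fold is the pileup plus 1 over the local background plus 1, and the local background moved too. At Hoxb1 the local background was 17.6 times the list's most common background at D0, 3.16 times at D6 and 7.65 times in iPSC. Over all H3K27me3 peaks in the clusters its median was 14.7, 8.77, 8.79, 3.16, 3.77, 4.7, 2.85 and 8.89 times in stage order. Over whole lists the median stayed between 1.86 and 3.7 times. Cluster peaks were thus called against a higher local background than most peaks of their list, and its part in the counts of marked genes was not tested.

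**Figure D2:**
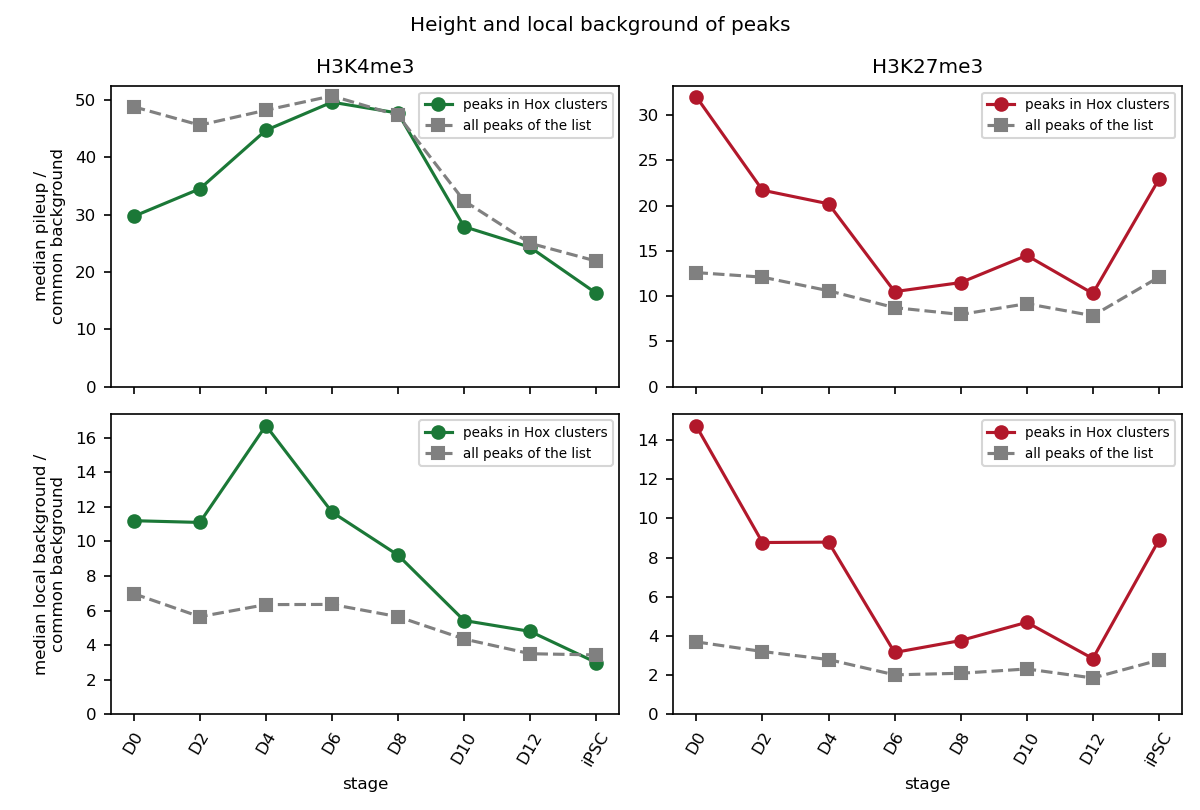
Median height of peaks (top) and median local background at peaks (bottom), both divided by the list's most common background (vertical axes), at each stage for H3K4me3 and H3K27me3. Coloured circles are peaks in the 4 Hox clusters and grey squares all peaks of the list. For H3K27me3 the Hox values are 32.0 and 14.7 at D0, 10.5 and 3.16 at D6, and 22.9 and 8.89 in iPSC.

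Covered length was likewise greatest at D0. The 4 clusters, 485.0 kb from first to last gene in all, had 14.56% of their length under H3K27me3 peaks at D0. The 7 later stages had 3.46, 3.11, 1.24, 3.01, 4.01, 1.1 and 4.4%. In the 200 kb on each side of the clusters the share was 5.37% at D0, 0.34% at D6 and 1.5% in iPSC. The clusters held 0.422% of all bp under H3K27me3 peaks in the D0 list, 0.146% in the D6 list and 0.225% in the iPSC list, so the clusters' covered length differed by more than the list's. Cluster D was the most covered at D0 with 20.59%, ahead of C with 13.99%, B with 13.13% and A with 11.83%. At D6 the 4 clusters lay between 0.86 and 1.55%.

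When the peaks of all stages were merged, the clusters held 108 H3K27me3 regions. Of these 32 were called at D0 alone, 47 at a single stage of any kind and 3 at every stage. At the posterior end of cluster B, Hoxb13, a posterior gene known in the tail and prostate, had 2727 bp under H3K27me3 at D0, 897 bp at D6 and 1373 bp in iPSC. Its D0 peak was wider than 98.4% of that list. Hoxc10, a posterior gene used at lumbar levels, had 1482, 433, 345, 408, 408, 705, 0 and 1464 bp in stage order. At D10 the mark was at Hoxa9, Hoxa10, Hoxa11 and Hoxa13 together, the run of posterior cluster A genes, while at D2 it was at none of these. The D10 call of Hoxa9 rested on 125 bp at the edge of its 1 kb extension.

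When lists were cut to equal length, by the highest −log10 p-values, H3K27me3 was at 21 Hox genes at D0, 17 at D10 and 15 in iPSC. The net difference from D0 to iPSC was then -6. The whole lists had 19842 peaks at D0, 7574 at D6, 9972 at D12 and 15805 in iPSC, so list length was also greatest at D0 and least at D6. With gene bounds extended by 5 kb the mark was at 38 Hox genes at D0 and 30 in iPSC, a net difference of -8.

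**Figure D3:**
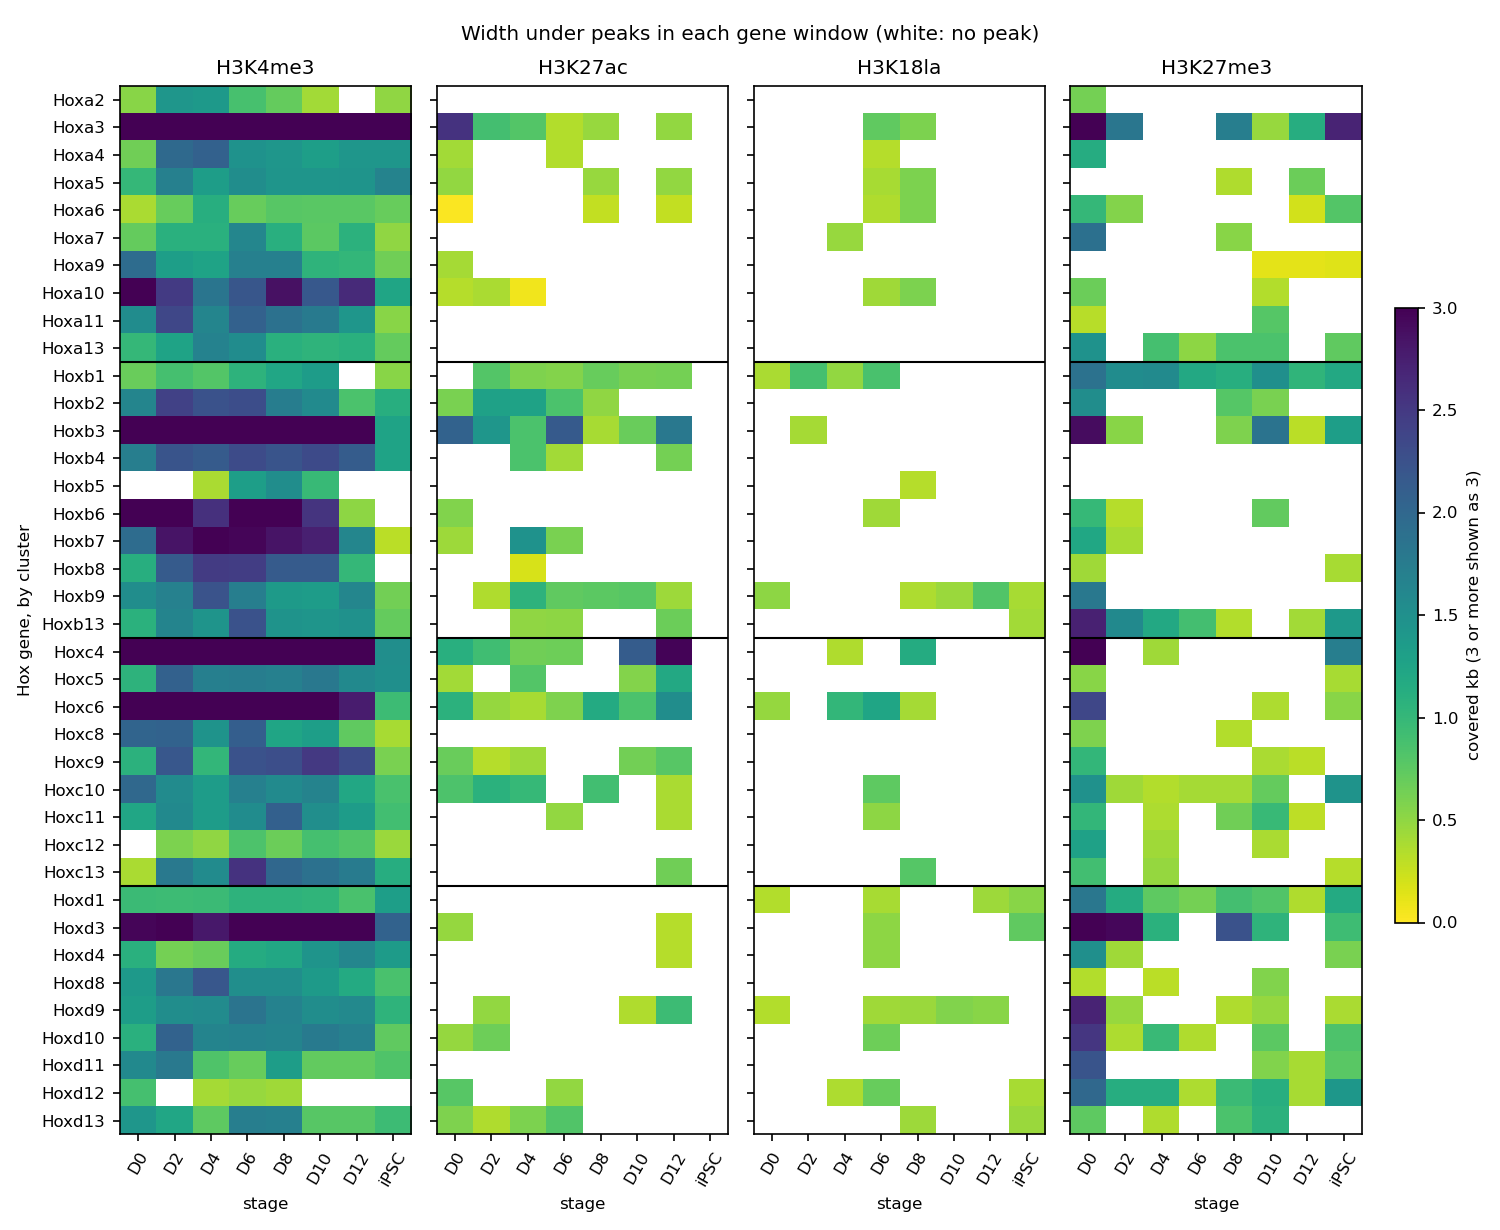
Length under peaks in the window of each Hox gene (rows, grouped by cluster and in order of paralogue number) at each stage (columns), for 4 marks. Colour gives covered kb, white means no peak, and windows of 3 kb or more share the darkest colour. H3K27me3 runs along whole rows at Hoxb1, Hoxd1 and Hoxd12 and is absent from the rows of Hoxb4 and Hoxb5.

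H3K4me3, the promoter mark, was on nearly every Hox gene at every stage. In stage order it was at 36, 36, 38, 38, 38, 37, 34 and 34 of 38 genes, and over all coding genes at 64.9, 67.3, 67.3, 67.0, 67.7, 68.8, 68.1 and 69.7%. It was at all 8 stages in 31 Hox genes, a share not counted over all coding genes. Of the other 7, Hoxb5, a central gene, had it from D4 to D10 only and Hoxc12 lacked it at D0 only. Hoxa2 and Hoxb1 lacked it at D12 only, and Hoxb6 and Hoxb8 in iPSC only. Hoxd12 had it at D0, D4, D6 and D8. Between D0 and iPSC, Hoxb6, Hoxb8 and Hoxd12 had it at D0 alone, against 1.79% of all genes, and Hoxc12 in iPSC alone, against 6.65%.

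Length and height differed far more than the count of genes. The clusters had 12.73% of their length under H3K4me3 at D0, then 16.02, 14.31, 16.93, 16.48, 15.11, 11.86 and finally 6.45%. The flanks stayed between 2.19 and 2.91%. Of the list's covered bp the clusters held 0.239% at D0, 0.308% at D8 and 0.102% in iPSC. In iPSC the anterior windows had 7.16% of their length covered, the central 8.33% and the posterior 11.45%, whereas at D6 the central windows led with 28.62%.

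There were 30 regions with H3K4me3 at all 8 stages, and most were tallest in the middle of reprogramming. Their median height over the list's most common background was 33.1, 46.5, 49.4, 64.9, 72.2, 38.6, 35.5 and 16.8 in stage order. The height was greatest at D8 in 19 regions, at D6 in 9, and at D2 and D10 in 1 each. It was lowest in iPSC in 24 and lowest at D0 in the other 6. The median over all peaks of a list was 48.8, 45.6, 48.2, 50.7, 47.3, 32.4, 25.0 and 21.9 in stage order. The whole lists were thus also lower from D10 on, while from D0 to D8 they stayed between 45.6 and 50.7. The most common background was 3.4 at D0 and 1.96 in iPSC, the lowest of the mark, and the part of depth was not tested.

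The 24 regions lowest in iPSC lay in all 4 clusters. Hoxc6, a central gene used in the thorax, had heights of 55.9, 74.6, 80.6, 106.0, 98.0, 76.1, 75.3 and 15.8 in stage order. Hoxc9, a posterior gene of the same cluster, had 47.4, 71.4, 66.3, 95.6, 119.0, 84.2, 81.8 and 20.4. Hoxa10, a posterior gene needed in the uterus, had 74.1, 62.1, 53.1, 73.9, 89.7, 32.7, 40.4 and 18.9. All 3 peaked at D6 or D8, and iPSC was below every other stage.

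A few regions were lowest at D0 instead, though these too were tallest at D6 or D8. Hoxc13, the outermost gene of cluster C and known in hair and nail, had heights of 13.5, 18.7, 23.0, 68.0, 75.0, 38.8, 49.3 and 50.0. Hoxb13 had 7.65, 14.3, 24.9, 39.0, 38.3, 33.6, 31.5 and 16.8. Hoxd1 had 13.5, 29.3, 39.5, 54.0, 52.3, 20.0, 17.1 and 17.9. The region of Hoxd3 and Hoxd4 had 11.2, 13.5, 21.0, 40.8, 39.0, 19.4, 18.2 and 17.3. These 4 regions and 2 outside the gene windows were the 6 with more height in iPSC than at D0.

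The highest of the authors' folds in a Hox window was that of Hoxd1 at every stage from D0 to D12, with 7.63 to 10.64, and that of Hoxc13 in iPSC with 8.7. Fold did not rank with height. At D0 Hoxd1 had a height of 13.5 and a local background of 1.52 times the list's most common background. Hoxa10, the tallest of the 30 regions at D0, had a height of 74.1 and a local background of 32.6 times. The widest peak overlapped the Hoxb7 and Hoxb8 windows from D2 to D10, with 3147 to 3486 bp, wider than 99.2 to 99.8% of its list. Hoxb7 had 316 bp left under H3K4me3 in iPSC and Hoxb8 none.

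In lists of equal length H3K4me3 was at 36 Hox genes at D0 and 12 in iPSC, so the net difference was -24 where the whole lists gave -2. The iPSC list is the longest of the mark with 35333 peaks against 18944 at D0.

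**Figure D4:**
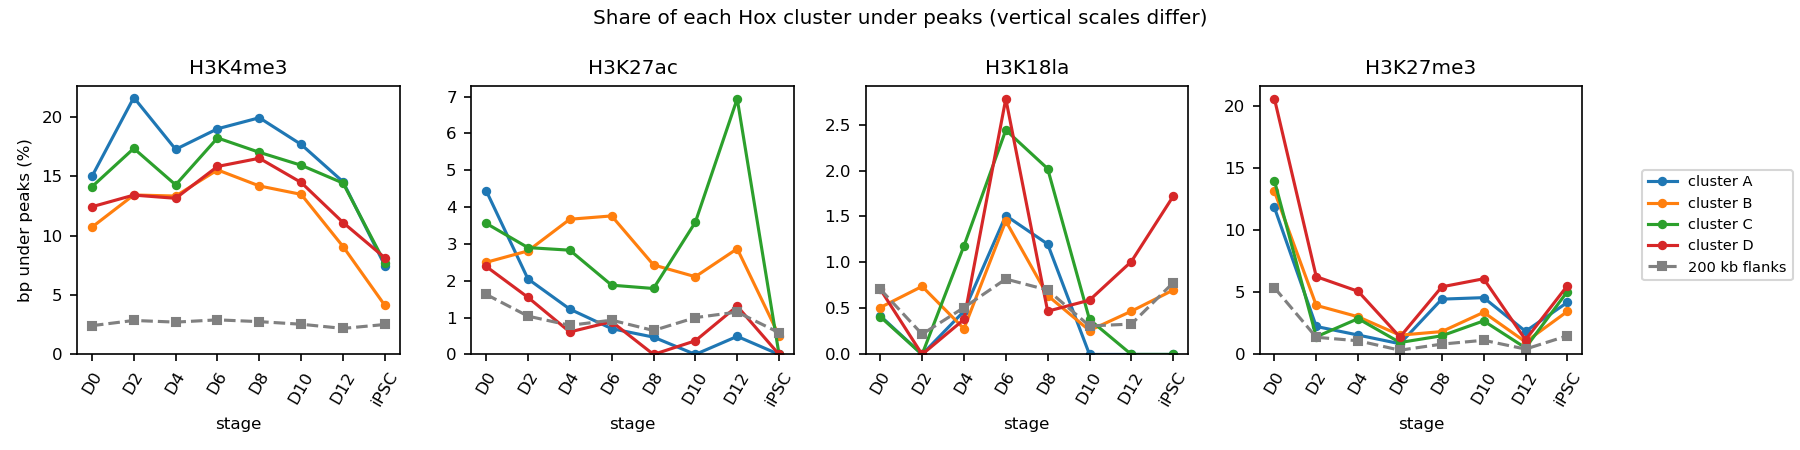
Share of each Hox cluster under peaks in percent (vertical axes, which differ between panels) at each stage for 4 marks. Coloured lines are the clusters, and the grey dashed line is the sequence within 200 kb of them. For H3K27me3 cluster D stands at 20.59% at D0, and for H3K27ac cluster C reaches 6.94% at D12.

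H3K27ac, the mark of active promoters and enhancers, was on a mixed set of Hox genes from D0 to D12 and on none in iPSC. In stage order it was at 19, 13, 16, 14, 9, 8, 18 and 0 of 38 genes, and over all coding genes at 63.5, 57.5, 52.3, 53.7, 50.3, 56.3, 61.8 and 41.3%. The Hox share was below that of all genes at each stage. The mark was at D0 and not in iPSC in 19 of the 38 Hox genes, against 25.6% of all genes, and no Hox gene had it in iPSC alone, against 3.39%. No H3K27ac peak was found at any stage in 10 genes, Hoxa2, Hoxa7, Hoxa11, Hoxa13, Hoxb5, Hoxc8, Hoxc12, Hoxd1, Hoxd8 and Hoxd11. The share of all coding genes with no H3K27ac peak at any stage was not counted. At equal list length, ranked by −log10 p-value, the D0 list left 2 Hox genes with H3K27ac, the D4 list 16, the D12 list 6 and the iPSC list 0, a net difference of -2 against -19.

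The clusters differed in their courses over the whole lists. Cluster A had 4.45% of its length under H3K27ac at D0, 2.05% at D2, 0.47% at D8, 0.0% at D10 and 0.49% at D12. Cluster D went from 2.39% at D0 to 0.0% at D8 and 1.31% at D12. Cluster B was highest at D4 and D6, with 3.67 and 3.76%. Cluster C had 3.56% at D0, 1.79% at D8, 3.59% at D10 and 6.94% at D12, its highest value, and 0.0% in iPSC. The flanks stayed between 0.59 and 1.63%. At equal list length the D0 values were 2.06% in A and 0.0% in B, C and D, and at D12 cluster C had 3.22%, B 0.4% and D 0.0%.

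Single genes showed the same split. Hoxa3, an anterior gene needed for the thymus, had 2565 bp under H3K27ac at D0, 893 bp at D2, 0 bp at D10 and 486 bp at D12. Its long bounds enclose Hoxa4, Hoxa5 and Hoxa6, so this is not the course of Hoxa3 alone. The D0 value includes 411 bp at Hoxa4 and 486 bp at Hoxa5, and the D12 peak is that of Hoxa5. Hoxc4, the gene at the anterior end of cluster C, had 1107, 924, 651, 658, 0, 2125, 2975 and 0 bp in stage order. Its 1844 bp peak at D12 was wider than 99.1% of the list. Hoxc6 and Hoxb3 had H3K27ac at 7 stages, D0 to D12. The bounds of Hoxb3 enclose Hoxb4, and at D4 its only peak was the 847 bp peak of Hoxb4. Hoxc9 had the highest Hox fold at D10 and D12, 5.5 and 5.84, after 3.65 at D0 and no peak at D6 and D8.

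Other genes had H3K27ac for part of the course. Hoxd13, known for digit formation, had H3K27ac from D0 to D6, with 582, 357, 592 and 814 bp, and none later. Hoxb1 had none at D0 and 804, 576, 558, 703, 617 and 627 bp from D2 to D12. Hoxb9 likewise had none at D0 and 360 to 1058 bp from D2 to D12. Hoxc13 had a peak at D12 only, of 656 bp. In iPSC all of these were at 0 bp.

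**Figure D5:**
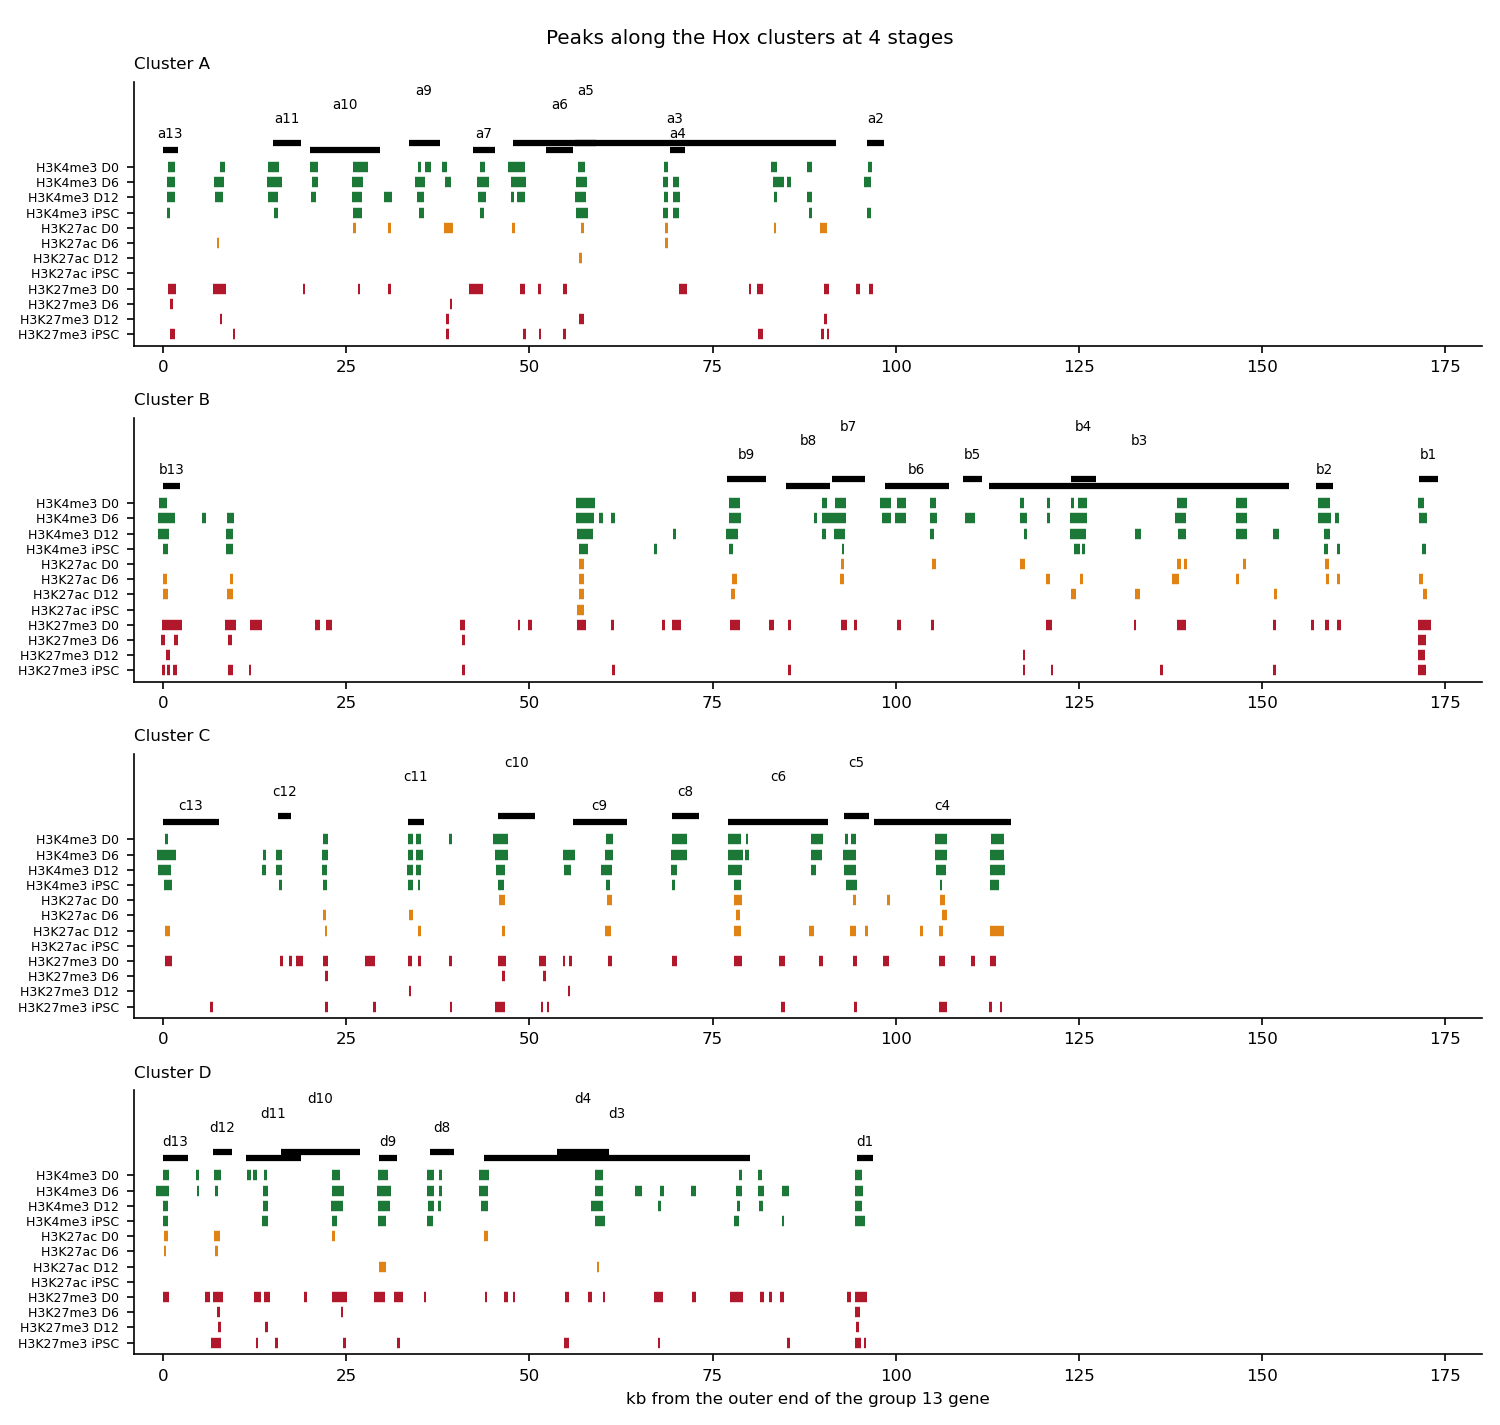
Peaks along clusters A to D at D0, D6, D12 and iPSC. The horizontal axis is the distance in kb from the outer end of the group 13 gene, black bars are genes, and coloured blocks are peaks of H3K4me3 (green), H3K27ac (orange) and H3K27me3 (red). The only H3K27ac block in iPSC lies in cluster B, 19.59 kb from Hoxb9.

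H3K18la, a lactate-derived mark, was sparse on Hox genes except in the middle of the course. In stage order it was at 5, 2, 5, 16, 11, 2, 3 and 6 of 38 genes, and over all coding genes at 45.1, 29.4, 43.2, 52.3, 45.5, 30.4, 33.7 and 40.7%. At D6 it was at 6 anterior, 4 central and 6 posterior genes. These 16 genes had 13 distinct peaks between them. Hoxa3 was counted through the peaks of Hoxa4 and Hoxa5, and Hoxd3 through that of Hoxd4. Hoxb9 and Hoxd9, both posterior genes of group 9, had it at 5 stages each. Hoxd9 had 350 bp at D0 and 433, 457, 572 and 535 bp from D6 to D12. Between D0 and iPSC, Hoxb1, Hoxc6 and Hoxd9 had it at D0 alone, against 14.6% of all genes. Hoxb13, Hoxd3, Hoxd12 and Hoxd13 had it in iPSC alone, against 10.1%.

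The D6 list was the longest of the mark, with 18455 peaks, and at equal list length H3K18la was at 3 Hox genes at D6. Where it was found, it mostly lay under H3K4me3. In the clusters 67.7% of its bp were shared with H3K4me3 at D0, 85.3 to 100.0% from D2 to D12 and 51.5% in iPSC. Cluster D had 1.01% of its length under H3K18la at D12 and 1.72% in iPSC, while A and C had 0.0% at both.

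H3K9me3, the mark of constitutive heterochromatin, was nearly absent. In stage order it was at 0, 0, 1, 0, 0, 0, 0 and 1 of 38 genes, against 12.6, 11.0, 14.8, 7.35, 5.7, 8.08, 6.05 and 11.1% of all genes. The 2 cases were Hoxb1 at D4, with a 418 bp peak of fold 6.13, and Hoxd3 in iPSC, with a 389 bp peak of fold 5.86. Against the D0 list this made 0 genes lost, beside 6.31% of all genes, and 1 gene gained, beside 4.82%.

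H3K4me3 and H3K27me3 were found together at most Hox genes of the fibroblasts. In stage order 33, 13, 14, 7, 16, 21, 10 and 18 genes had both, and over all coding genes 21.2, 18, 21.4, 13.2, 17.9, 21.4, 15.4 and 24.4% had both. At D6 each of the 7 genes with H3K27me3 also had H3K4me3, and the other 31 had H3K4me3 alone. In iPSC 18 genes had both, 16 H3K4me3 alone, 2 H3K27me3 alone (Hoxb8 and Hoxd12) and 2 neither (Hoxb5 and Hoxb6). At equal list length both marks were at 20 genes at D0, 7 at D4 and 6 in iPSC. With bounds extended by 5 kb they were at 23 genes at D2, 14 at D6, 16 at D12 and 30 in iPSC, and with stricter peaks at 4 at D6 and 6 at D12. These are bulk cells, so both marks on the same allele and marks on different cells cannot be told apart, nor can fewer marked cells and less mark per cell.

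The overlap in bp was less complete than the overlap in genes. At D0, 41.7% of the H3K4me3 bp in the clusters were also under H3K27me3, against 5.47% at D6, 18.6% at D10 and 14.8% in iPSC. Of the H3K27me3 bp, 36.4% at D0, 74.8% at D6 and 21.6% in iPSC lay under H3K4me3. H3K27ac and H3K27me3, which cannot sit on the same histone tail residue at once, were also found together. At D0 17 of the 19 genes with H3K27ac had H3K27me3 as well, and 61.1% of the H3K27ac bp lay under it. By D12 the share of bp was 6.41%, with both marks at 8 of 18 genes. Among all 38 Hox genes H3K27me3 was at 34 at D0 and 12 at D12. The share of all coding genes with H3K27ac and H3K27me3 together was not counted.

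Some peaks of the clusters lay outside every Hox window. In cluster B a region at chr11:96250622-96254548, overlapping the RNA gene Gm53 and outside every Hox window, had H3K4me3 at all 8 stages. Its H3K27ac heights over the list's most common background were 12.1, 11.4, 16.7, 13.9, 13.7, 13.6, 10.7 and 5.29 in stage order. It was the only place in the clusters with H3K27ac at every stage and held the only H3K27ac peak of the clusters in iPSC, of 884 bp and fold 4.16. It also had H3K27me3 at D0, D2 and D4.

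In cluster C a region at chr15:102942804-102943705, between Hoxc12 and the RNA gene Hotair, had H3K4me3 folds of 3.67, 6.57, 7.47, 8.63, 9.65, 11.43, 11.14 and 4.95. At D10 and D12 these were above the highest fold in any Hox window, 8.71 and 8.93 at Hoxd1. Its heights over the list's most common background were 43.6 and 41.1 at those stages, below the 90.6 and 86.6 of a Hoxc4 region. H3K27me3 was also called in the region between Hoxc12 and Hotair, at D0 to D8 and in iPSC, with folds of 1.92 to 3.03. In cluster B a region at chr11:96234846-96235523, with no annotated gene, had H3K27me3 at 6 stages. Its fold was 3.76 at D0 and 6.84 in iPSC, above the highest fold of any Hox gene window in that list, 3.56 at Hoxc13.

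The clusters also hold microRNA genes, whose products act on messenger RNAs through the seed, bases 2 to 8. The mature sequences of 2 families are shown because their genes lie within Hox territory and differed in marks within 1 kb of their bounds. They are RefSeq entries of GRCm38.p6, 5′ to 3′, with the seed in capitals.
mmu-miR-10a-5p: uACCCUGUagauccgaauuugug
mmu-miR-10b-5p: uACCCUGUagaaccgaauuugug
mmu-miR-196a-5p: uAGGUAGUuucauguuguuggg
mmu-miR-196b-5p: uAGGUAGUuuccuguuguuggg

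Both miR-10 products share 1 seed and both miR-196 products another. Mir10a, beside Hoxb4 and within the bounds of Hoxb3, had H3K4me3 from D0 to D12 and H3K27me3 at no stage, and Hoxb4 had none either. Mir10b, within the bounds of Hoxd4 and Hoxd3, had H3K27me3 at D0 only and H3K4me3 at D10 and D12. The H3K4me3 calls of Mir10a came from the 1 kb extension reaching the edge of the Hoxb4 peak. Those of Mir10b came from the edge of the Hoxd4 peak. Both peak regions had H3K4me3 at all 8 stages, so these calls differ by where the peak edge lay. Mir196b, beside Hoxa10, had H3K27me3 at D0 only, H3K27ac at D0 and D4, and H3K4me3 at D2, D4, D8, D10 and D12. The product miR-196a comes from 2 genes. Mir196a-1, in cluster B, had H3K27me3 at D0, D2 and D10, and Mir196a-2, in cluster C, had it from D0 to D6 and in iPSC. Mir196a-1 also had H3K4me3 at D10 and D12 and H3K27ac at D8, while Mir196a-2 had neither of these marks at any stage. Across 10 RNA genes of the clusters H3K27me3 was at 9, 5, 4, 2, 3, 4, 2 and 5 in stage order. H3K27ac was at 4, 2, 3, 1, 2, 2, 4 and 0. Over all coding genes H3K27me3 was at 28.0% at D0 and 28.2% in iPSC, and H3K27ac at 63.5 and 41.3%. Hotair, known as a regulator of Polycomb targets, had H3K4me3 at all 8 stages within 1 kb of its bounds. Its calls of H3K4me3, H3K27ac, H3K18la and H3K27me3 fell at the same stages as those of the region between Hoxc12 and Hotair. They may therefore be the same peaks.

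Related homeobox genes and the genes beside the clusters were counted in the same way. The 8 Evx and ParaHox genes, which include Cdx1, Cdx2 and Cdx4, had H3K27me3 at 8, 7, 5, 4, 5, 4, 4 and 4. Over all coding genes the share was 28.0% at D0 and 28.2% in iPSC. The 8 genes that flank the clusters, such as Skap2 and Mtx2, had H3K27ac at 8 at D0 and 6 in iPSC. The Hox genes had it at 19 of 38 and 0, and all coding genes at 63.5 and 41.3%. Window lengths were not matched between these sets.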

How the data were processed

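CUT&Tag peak lists of 5 marks at 8 stages were used, 40 lists from 80 libraries. Per the submitters' processing notes, the authors used MACS2 2.1.2, Bowtie2 2.2.5, deepTools 3.4.3 and fastp 0.20.1 with mm10. Pooling of the 2 libraries of a stage and use of a control are not given in the sources used here. Each deposited peak has a fold enrichment (a ratio of pileup to local background) with −log10 of its p-value and of its q-value, the lowest −log10 p-value being 5.0. Lists were grouped by mark and stage.

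Peaks on the main chromosomes were used, 710560 of 713652, and 3092 were left out. Gene bounds came from RefSeq of GRCm38.p6, which shares mm10 coordinates and gives no strand. A gene was marked when at least 1 bp of a peak lay within 1 kb of its bounds. The members are all named, and the parts are anterior, central and posterior groups. Named gene lists were Evx and ParaHox genes, flanking genes, RNA genes and cell type markers. Promoters were shown for up to 3 members with H3K27me3 at most stages and up to 3 at none. Members and lists were chosen with earlier results of these data known. Pileup and background were solved from fold and p-value under a Poisson model, within 0.01, for 99.56% of peaks (lowest 96.2%, H3K4me3 at D2). The unsolved peaks had the highest −log10 p-values and none lay in a Hox cluster. Read totals are not in the lists, so no interval was given. Alternatives were gene bounds without extension or extended by 5 kb, an overlap of at least 200 bp, peaks with a −log10 q-value of at least 5, lists of equal length, and clusters extended by 20 kb. Python 3.11.15, pandas 2.3.3, numpy 2.4.6 and scipy 1.17.1 were used, and the solving step was tested on simulated data. One Hox gene of the rule is not analysed here, and a list of cofactor genes is not reported here.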

Additional observations from a re-analysis of the deposited data

How the results depend on the processing

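Each mark has 1 list per stage, so no replicate could be left out and stage differences are differences between lists. No paired analysis was possible because the lists do not hold the 2 libraries of a stage apart. The net difference in marked Hox genes between D0 and iPSC kept its sign and stayed within 1.5 times for all 5 marks with stricter peaks and with an overlap of at least 200 bp. With lists of equal length it was -24 for H3K4me3, -2 for H3K27ac, 0 for H3K18la, -6 for H3K27me3 and 0 for H3K9me3. Without extension of gene bounds it was -1 for H3K4me3 and 0 for H3K18la, and with 5 kb it was 0 for H3K18la and -8 for H3K27me3. The difference in covered percent of the clusters in lists of equal length was -5.19 for H3K27me3, -10.64 for H3K4me3, 0.0 for H3K9me3 and -0.24 for H3K27ac. For H3K18la it was 0.09 in the whole lists, 0.17 in the stricter part and 0.15 with clusters extended by 20 kb, but -0.01 at equal length. For H3K9me3 it was -0.06 in the whole lists and 0.01 with clusters extended by 20 kb. A stage count moved by over 1.5 times in 14 of 40 lists at equal length, in 6 with 5 kb and in 3 in the stricter part. Equal length removes the weakest peaks of the longer lists, which is how it changes the counts. The part of depth in absent peaks was not tested, and the shallowest list was H3K18la at D2.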
